A study of Mus musculus with 15 samples.

Results

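The comparison asked whether the difference between spaceflight and ground in the mouse femur was the same in unoperated mice and in mice with a segmental bone defect. All 15 arrays of the series, 1 per mouse, entered it. Each mouse was a male C57BL/6J, 9 weeks old in the labels. G-Sham (4 arrays) were unoperated mice kept on the ground, FLT-Sham (4) unoperated mice flown to the International Space Station, G-Surgery (4) operated mice on the ground and FLT-Surgery (3) operated mice that were flown. Surgery removed a segment of the femoral midshaft before launch and replaced it with a pinned polymer and calcium phosphate graft carrying a collagen sponge soaked in saline, without a growth factor. All 4 groups had the same diet and type of flight hardware, and the ground mice were run some days after the flight mice, so that flight and calendar time cannot be told apart. The labels call the tissue of every mouse callus, although the Sham mice had no defect and gave the matching stretch of shaft.

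A defect of this kind heals through a callus in which blood vessels, cartilage, fibrous tissue and new bone follow each other, next to marrow and the muscle around the shaft. Slow muscle fibres, which hold posture and burn fatty acids, have their own set of sarcomere proteins and are known to respond to unloading. An interaction in a design with 2 factors is the difference between 2 differences, here FLT-Surgery minus G-Surgery less FLT-Sham minus G-Sham. It is below 0 where flight mice stood higher in Sham and lower in Surgery, or where the difference was merely more downward in Surgery. A flight difference is called turned round here when its sign was opposite in Sham and Surgery.

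Sample RNA (Cy5) was hybridised with a universal mouse reference RNA pooled from cell lines (Cy3), and values are log2 ratios of sample to reference from the log ratio that the authors deposited. Of 55681 probes, 21777 had a Cy5 signal well above background on 3 or more of the 15 arrays and were tested with limma in 1 fit over the 4 groups. The cut-off was at least 2-fold with an unadjusted p of at most 0.01. Of the 18 fast muscle genes, 13 to 18 were above background per array, so that every specimen held muscle RNA beside that of bone. The number of probes above background was 12869 to 18300 in G-Sham, 14813 to 21461 in FLT-Sham, 14309 to 20697 in G-Surgery and 12493 to 14260 in FLT-Surgery. This number itself had an interaction of -6917.5 (exact permutation test within Sham and within Surgery, two-sided p = 0.0212). The median log2 ratio per array also had one, of -0.53 (exact permutation test, two-sided p = 0.0139). The part of these array-wide differences in the results for genes was not tested. The study gives a low mean RNA integrity for its bone specimens, with no value per array. FLT-Sham replicate 8 correlated at 0.657 to 0.804 with the other FLT-Sham arrays, which correlated at 0.891 to 0.936 among themselves. FLT-Surgery replicate 1 correlated at up to 0.818 with the other FLT-Surgery arrays, which correlated at 0.921.

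**Figure D1:**
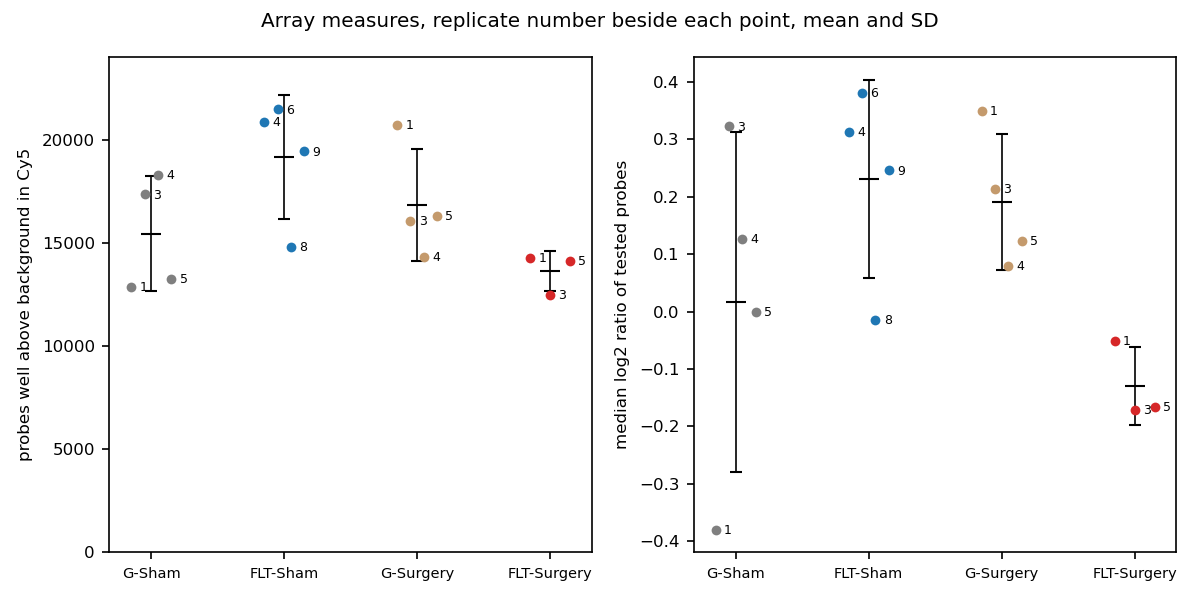
Number of probes well above background in Cy5 (left) and median log2 ratio over the tested probes (right), 1 point per array with its replicate number, and mean with SD per group. All 3 FLT-Surgery arrays lie at 14260 probes or fewer, and FLT-Sham replicate 8 lies at 14813, below the other FLT-Sham arrays.

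With the deposited log ratio, 1160 probes passed the cut-off for the interaction. Of these, 1082 were below 0 (4.97% of the probes tested) and 78 above 0 (0.358%). After Benjamini-Hochberg adjustment, limma left 0 probes at 0.05, the lowest adjusted p being 0.0805, and 4245 probes were at or under 0.05 before adjustment. This depended on equal weights of the arrays, since with limma array weights 6627 probes were at an adjusted p of 0.05. In 1134 of the 1160 the flight difference turned round, 1071 being higher in flight in Sham and lower in flight in Surgery and 63 the reverse. Over all tested probes 62.6% had flight differences of opposite sign. A probe chosen for a large difference between its 2 sides tends to have opposite signs, so these shares cannot be compared. A sign was counted whatever the standard error of that side. The probes that also moved at least 2-fold on both sides numbered 606, with 599 of them higher in flight in Sham. On each side alone, 643 probes passed the cut-off in Sham (547 higher in flight) and 572 in Surgery (159 higher in flight). Of the 1160, 506 were below background on every array of at least 1 group, where a difference is only a bound. Counted by the brightest probe of each of 11104 genes, 6.6% were past the cut-off below 0 and 0.225% above 0. Below 0 it was 1.39% of the genes after loess (described next) and 18.2% without FLT-Sham replicate 8. Without FLT-Surgery replicate 1, 2168 of 21777 probes were past the cut-off below 0, against 1082 with all arrays. Without FLT-Surgery replicate 5 it was 304 of 11104 genes. The counts for gene lists under these settings are to be read against those for all genes or probes. Of the 11104 genes, 52.6% were higher in flight in Sham and lower in flight in Surgery.

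The direction of this count rested on the scaling. With a loess fit within each array added to the deposited normalization, 897 probes passed and 26.0% of them were below 0, against 93.3% with the deposited log ratio. Centring each array on its median gave 61.0% below 0, and Cy5 alone with quantile normalization 76.9%. The median interaction of all genes was -0.72 with the deposited log ratio and 0.16 after loess. Gene lists are therefore given below relative to the median of all genes. The probes past the cut-off in the same direction under these 4 scalings numbered 246, of 173 genes, with 198 below 0 and 48 above 0, and in 244 of them the flight difference turned round. The count also rested on single arrays. It was 3770 without FLT-Sham replicate 8 (3013 at an adjusted p of 0.05) and 2240 without FLT-Surgery replicate 1 (633 at an adjusted p of 0.05). It was 773 without G-Sham replicate 1, 629 and 617 without FLT-Sham replicates 4 and 6, 646 without G-Surgery replicate 3, and 709 and 541 without FLT-Surgery replicates 3 and 5.

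**Figure D2:**
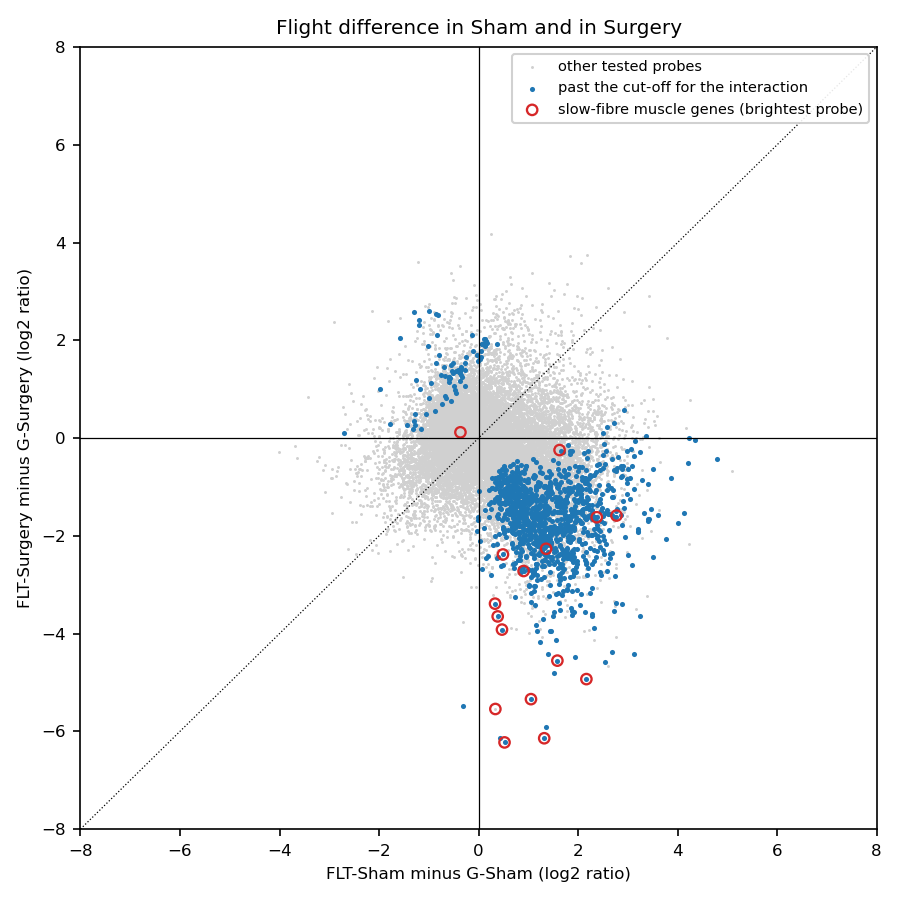
Flight difference in Sham (horizontal axis) against flight difference in Surgery (vertical axis), both in log2 units, for all 21777 tested probes, with the 1160 past the cut-off for the interaction in blue and the 16 slow-fibre muscle genes circled in red. The dotted line marks equal differences. Most blue points lie to the right of 0 and below 0, and most of the circled genes lie near the bottom.

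**Figure D3:**
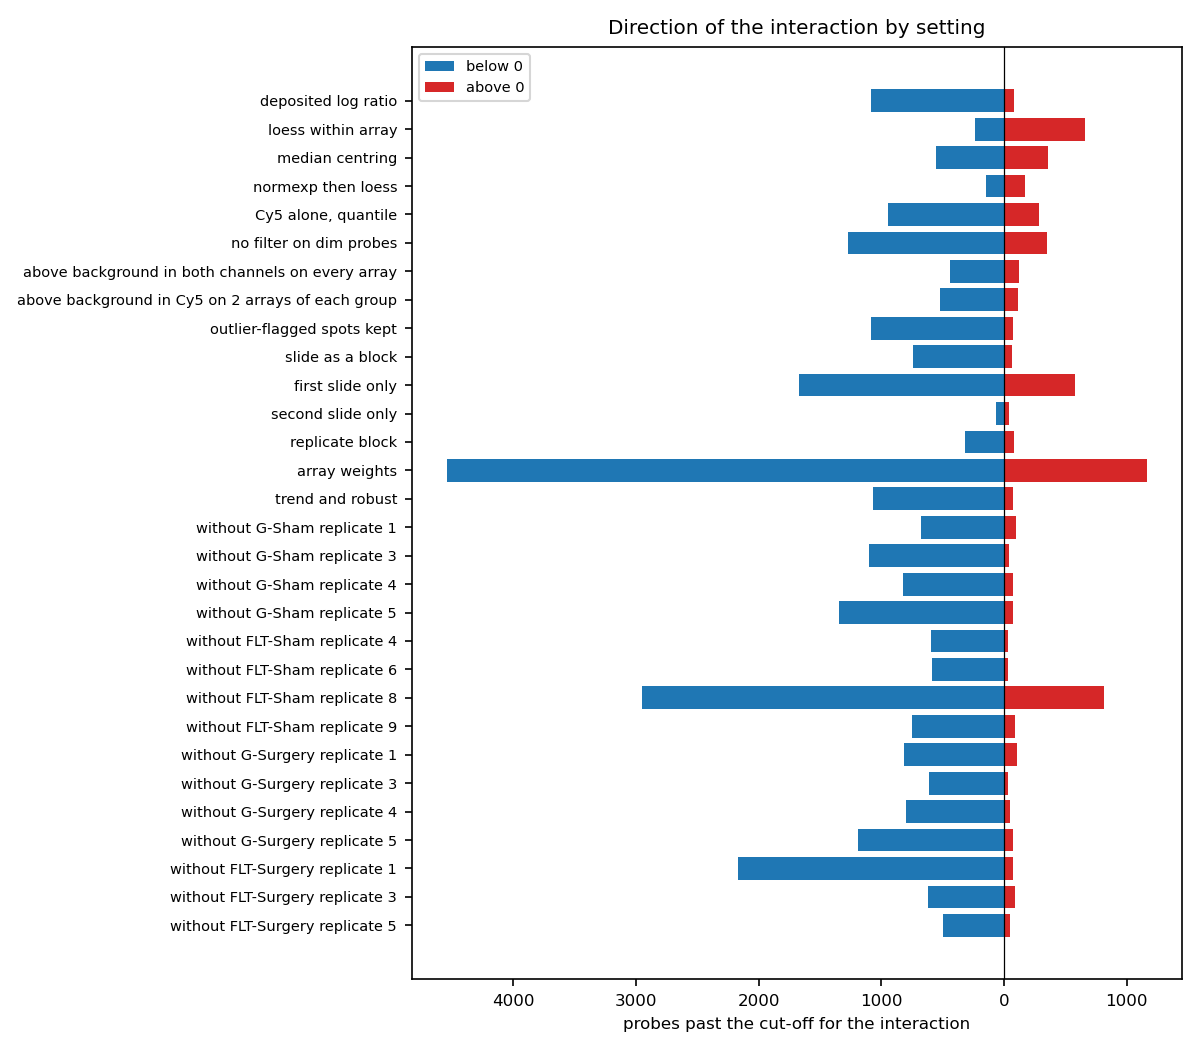
Number of probes past the cut-off for the interaction, below 0 to the left and above 0 to the right, under each setting. The split is 1082 to 78 with the deposited log ratio and 233 to 664 after loess within each array.

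Slow-fibre muscle genes had the lowest median of the gene lists with the deposited log ratio, while after loess the endothelial genes were lower. Of the 16 measured, 10 passed the cut-off below 0 and none above it, and 15 were higher in flight in Sham and lower in flight in Surgery. Their median interaction was -4.20, or -3.47 relative to the median of all genes. Relative to all genes it was -3.37 after loess, -3.73 with Cy5 alone, -4.27 without FLT-Sham replicate 8 and -3.85 without FLT-Surgery replicate 1. The slides were unevenly filled, the first with 1 array each of G-Sham and FLT-Sham, 3 of G-Surgery and 2 of FLT-Surgery, the second with 2, 3, 1 and 1 of these groups, and another with G-Sham replicate 4 alone. Relative to all genes the median was -4.10 on the first slide and -3.43 on the second, each resting on a side of 1 array against 1. The number past the cut-off was 5 after loess, 5 without FLT-Sham replicate 6 or FLT-Surgery replicate 3 or 5, and at most 11 with any array left out. The Surgery side was the larger, with a median flight difference of -3.52 in Surgery and 0.98 in Sham. In this bulk tissue, fewer slow fibres in a specimen and less slow-fibre RNA per fibre cannot be told apart.

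The mean log2 ratio over the 16 slow genes was 2.72, 4.06, 3.22 and 5.91 in G-Sham replicates 1, 3, 4 and 5. It was 5.32, 6.36, 3.16 and 5.40 in FLT-Sham replicates 4, 6, 8 and 9. On the Surgery side it was 2.43, 5.73, 4.26 and 3.09 in G-Surgery replicates 1, 3, 4 and 5, and 1.86, -0.40 and -0.03 in FLT-Surgery replicates 1, 3 and 5. The FLT-Surgery arrays lay below all others, and the Sham groups overlapped. On the FLT-Surgery arrays 5 to 8 of the 16 genes were above background, against 11 to 16 on the other arrays. The values of single genes below follow the same order of groups and replicates.

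Myl3, a myosin light chain of slow and cardiac muscle, measured 7.28, 7.42, 6.69 and 9.20 in G-Sham, 7.79, 8.35, 7.28 and 8.71 in FLT-Sham, 6.56, 9.46, 8.10 and 7.76 in G-Surgery, and 5.39, 2.85 and 4.72 in FLT-Surgery. Its flight difference was 0.38 (standard error 0.70) in Sham and -3.65 (0.76) in Surgery, and its interaction -4.03 (1.03, limma adjusted p = 0.171). Fabp3, which carries fatty acids in heart and slow muscle, measured 3.57, 4.58, 3.82 and 4.53 in G-Sham, 4.61, 5.29, 3.49 and 5.06 in FLT-Sham, 2.24, 4.64, 3.52 and 3.56 in G-Surgery, and 1.27, 0.64 and 1.40 in FLT-Surgery. In both genes the Surgery groups did not overlap, and the Sham groups did. The interaction of Fabp3 was -2.87 (standard error 0.75, limma adjusted p = 0.171). Myh7, the slow myosin heavy chain, had wider spreads and measured 5.92, 7.09, 6.51 and 10.13 in G-Sham, 8.74, 9.22, 6.91 and 8.99 in FLT-Sham, 4.74, 9.79, 8.20 and 5.23 in G-Surgery, and 4.86, -1.54 and 1.62 in FLT-Surgery. FLT-Surgery replicate 1 overlapped with G-Surgery in Myh7, and replicates 3 and 5 lay below every other array.

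Other slow genes past the cut-off were the slow troponin T gene Tnnt1 (interaction -3.63, standard error 1.06), the light chain Myl2 (-6.75, standard error 2.10) and Mybpc1, the slow myosin-binding protein (-3.72, standard error 1.02). Myom3, Smtnl1, Csrp3 and Myoz2 were below background on all FLT-Surgery arrays. Their levels in G-Surgery were at least 16.3-fold, 6.00-fold, 4.65-fold and 4.25-fold higher, respectively. Such bounds set the mean of the brighter group against each array's dimmest Cy5 signal that counted as above background, and without a dye swap they may carry a bias of the dye. Tpm3, the brightest probe of the list, had an interaction of 0.48 (standard error 0.40) and did not pass the cut-off.

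Promoters of 4 slow genes are printed because these genes moved together in Surgery. The bases run from 250 before the transcription start to the start itself, 5′ to 3′ on the strand of the gene, from RefSeq on GRCm38.p6. They lie at chr3:123034988-123035237 on the minus strand (Myoz2), chr9:110763428-110763677 on the plus strand (Myl3), chr7:4515976-4516225 on the minus strand (Tnnt1) and chr4:130308488-130308737 on the plus strand (Fabp3). Capitals mark a match to a MEF2 site (CTA and TAG with any 4 bases between them) in Myoz2, to the M-CAT element (CATTCC or its complement) in Myl3 and to a TATA box (TATAAA) in Tnnt1, and Fabp3 has none of the 3.
Myoz2: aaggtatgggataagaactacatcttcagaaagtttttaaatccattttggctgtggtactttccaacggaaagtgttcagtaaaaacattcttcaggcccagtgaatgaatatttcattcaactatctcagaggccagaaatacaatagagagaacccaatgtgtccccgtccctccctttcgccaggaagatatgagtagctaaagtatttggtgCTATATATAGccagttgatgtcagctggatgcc
Myl3: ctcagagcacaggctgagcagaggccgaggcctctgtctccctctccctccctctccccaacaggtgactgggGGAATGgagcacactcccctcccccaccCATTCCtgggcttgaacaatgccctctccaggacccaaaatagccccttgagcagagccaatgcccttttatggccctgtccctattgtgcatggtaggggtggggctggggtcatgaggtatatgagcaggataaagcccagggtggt
Tnnt1: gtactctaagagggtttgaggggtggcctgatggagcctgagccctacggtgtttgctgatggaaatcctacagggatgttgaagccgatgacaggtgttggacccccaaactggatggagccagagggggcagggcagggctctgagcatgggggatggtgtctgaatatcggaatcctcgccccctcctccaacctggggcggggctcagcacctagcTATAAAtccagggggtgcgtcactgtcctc
Fabp3: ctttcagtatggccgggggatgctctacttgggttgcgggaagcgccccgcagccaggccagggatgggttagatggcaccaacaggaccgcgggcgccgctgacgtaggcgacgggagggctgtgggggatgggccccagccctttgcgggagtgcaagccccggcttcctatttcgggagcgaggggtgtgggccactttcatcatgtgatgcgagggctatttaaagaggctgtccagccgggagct
Of the 10 slow genes past the cut-off, with all their listed starts, 1 had the MEF2 letters, 2 the M-CAT letters and 2 the TATA letters, searched on both strands. These letters were found in 3.2%, 12.6% and 12.4% of 32851 mouse promoters of the same length. The E-box letters CANNTG were found in all 10 and in 66.2% of those promoters. The matches describe the sequence and are not evidence of binding.

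Fast-fibre muscle genes had a smaller shift, with 1 of 18 past the cut-off. It was 7 without FLT-Surgery replicate 1, where 2168 of 21777 probes passed below 0, against 1082 with all arrays. The gene past the cut-off with all arrays was Myh2, the myosin heavy chain of oxidative fast fibres. It measured 10.60, 12.63, 10.94 and 11.99 in G-Sham, 11.11, 11.11, 10.11 and 12.55 in FLT-Sham, 10.06, 13.00, 12.41 and 11.65 in G-Surgery, and 8.77, 4.57 and 5.57 in FLT-Surgery. Its interaction was -5.16 (standard error 1.29, limma adjusted p = 0.171). The 3 brightest fast genes were Tnnc2, Tnni2 and Myh4, with interactions of -0.31, -2.18 and 0.36, and none of them passed. The median of the list was at -1.68 relative to all genes, and at -1.62 after loess. Among regulators of muscle formation, Vgll2 (-6.32, standard error 2.01) and Cdon (-4.03, standard error 1.23) passed the cut-off below 0, the latter with a sign that turned under normexp background correction (0.11). Neither passed once G-Sham replicate 1 or 4 or FLT-Sham replicate 4, 6 or 9 was left out. The same held for replicates 3 and 5 of FLT-Surgery and replicates 3 and 4 of G-Surgery, and for Cdon also for FLT-Surgery replicate 1.

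**Figure D4:**
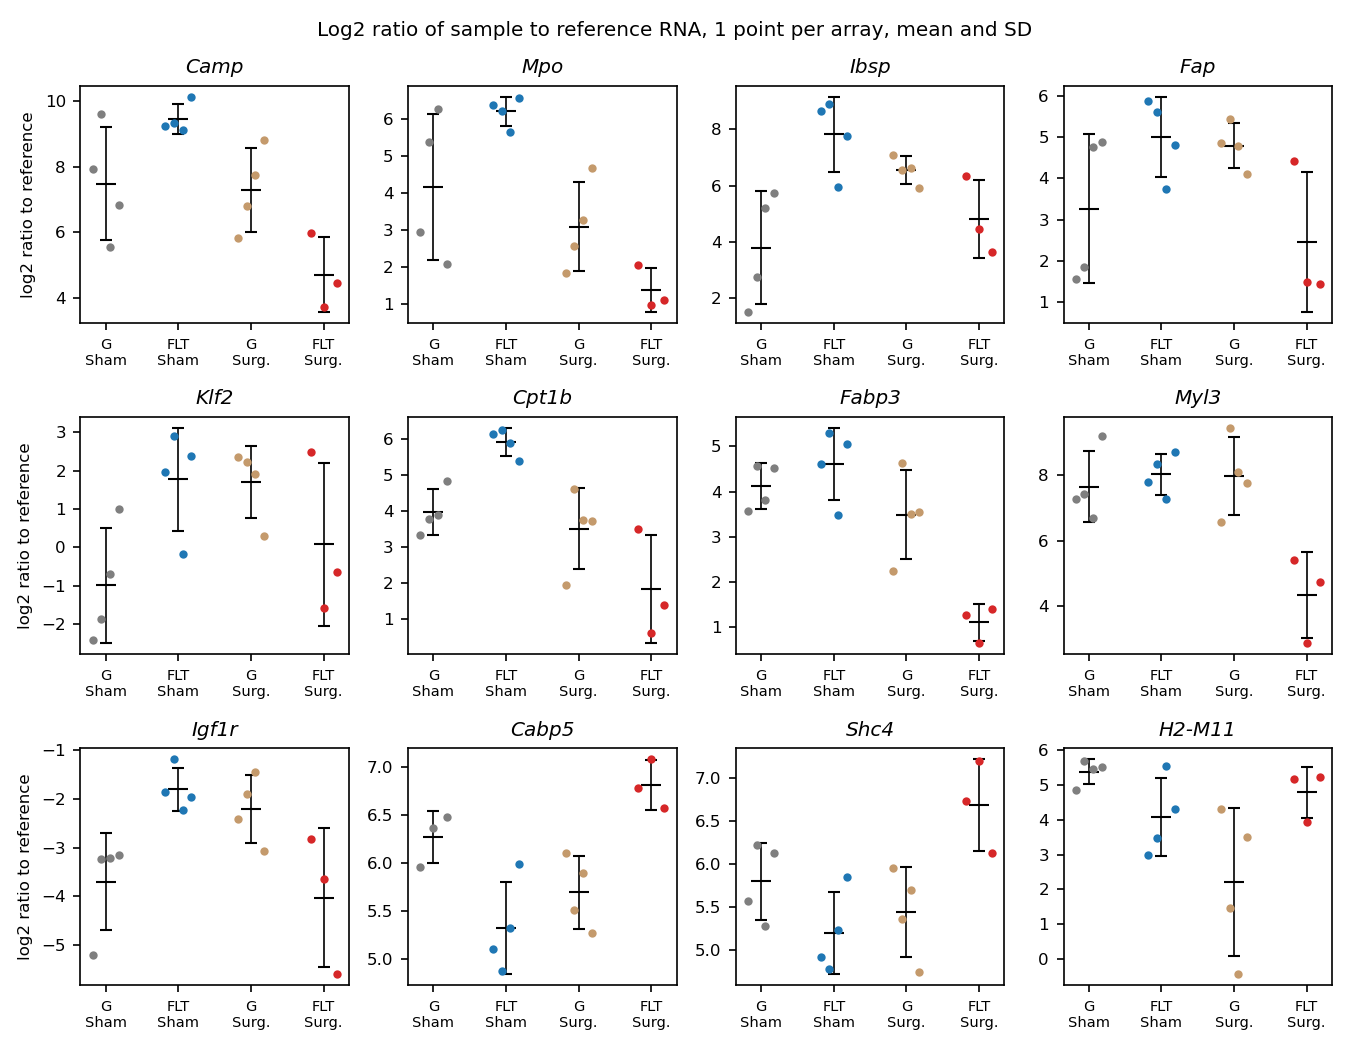
Log2 ratio of sample to reference for 12 genes, 1 point per array in replicate order within each group, with mean and SD. The first 9 genes had an interaction below 0, and Cabp5, Shc4 and H2-M11 one above 0. One Cabp5 spot of G-Sham was an outlier in the scan and is missing.

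Among genes measured on at least 2 arrays of each group that turned from higher to lower in flight, ranked by the smaller of their 2 flight differences, Camp stood first. Camp, the antimicrobial peptide cathelicidin of neutrophil granules, measured 7.92, 9.61, 5.55 and 6.84 in G-Sham, 9.24, 9.33, 9.11 and 10.13 in FLT-Sham, 5.83, 6.78, 7.75 and 8.79 in G-Surgery, and 5.97, 3.71 and 4.44 in FLT-Surgery. Flight mice stood 1.97 (standard error 0.81) higher in Sham and -2.58 (0.88) from ground in Surgery, with overlap on both sides. The interaction was -4.55 (standard error 1.20, limma adjusted p = 0.171). Mpo, the peroxidase of granulocyte precursors, measured 2.94, 5.37, 6.27 and 2.09 in G-Sham, 6.36, 6.21, 5.65 and 6.57 in FLT-Sham, 1.86, 2.56, 3.27 and 4.66 in G-Surgery, and 2.07, 0.97 and 1.11 in FLT-Surgery. These were the neutrophil genes past the cut-off, 2 of 13 measured. By brightest probes, none of the 13 passed after loess or without FLT-Surgery replicate 3 or 5. Without FLT-Surgery replicate 1, 4 did, where 2168 of 21777 probes passed below 0. For Camp the count used a brighter probe, with an interaction of -4.25. The Camp probe printed above did not pass after loess, but passed in all 15 fits that left out an array. The bright granule genes S100a9 and Ngp had interactions of -1.62 and -1.44 and did not pass.

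Ibsp, bone sialoprotein of mineralising osteoblasts, measured 1.50, 2.76, 5.19 and 5.75 in G-Sham, 8.65, 8.91, 5.95 and 7.75 in FLT-Sham, 7.10, 6.56, 6.64 and 5.90 in G-Surgery, and 6.35, 4.47 and 3.64 in FLT-Surgery. The Sham groups did not overlap. Its flight difference was 4.02 (standard error 0.92) in Sham and -1.73 (0.99) in Surgery, and its interaction -5.75 (1.35, limma adjusted p = 0.167). The probe printed here passed after loess and in all 15 fits that left out an array. A brighter probe of Ibsp, used for the list count below, gave an interaction of -3.06. Alpl, the phosphatase that osteoblasts use in mineralisation, was also past the cut-off (-3.90, standard error 1.24). These were 2 of 11 osteoblast and osteocyte genes by their brightest probes, with none left after loess or without FLT-Sham replicate 4, FLT-Surgery replicate 3, G-Sham replicate 3 or G-Surgery replicate 4, and the median of the list was at -0.09 relative to all genes. The collagen I genes Col1a1 and Col1a2 had interactions of -0.65 and -1.09 and did not pass. None of 11 osteoclast genes passed.

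Of 21 genes for collagens and their crosslinking, 6 passed the cut-off below 0 and 17 were higher in flight in Sham and lower in Surgery. Col12a1 and Col14a1, collagens that sit on fibrils, had interactions of -5.93 (standard error 1.96) and -5.09 (1.65). Serpinh1, the collagen chaperone, measured -1.09, -0.90, -0.27 and -1.21 in G-Sham, -0.18, -0.91, 0.29 and -0.68 in FLT-Sham, 1.11, 1.56, 0.58 and 0.26 in G-Surgery, and 0.00, -1.51 and -1.34 in FLT-Surgery. Its Surgery groups did not overlap. None of the 21 passed after loess. Without FLT-Surgery replicate 5, 2 passed below 0, where 304 of 11104 genes did. Without FLT-Surgery replicate 1, 11 passed, where 2168 of 21777 probes did. The median of the list was at -1.60 relative to all genes, or -1.27 after loess. Fap, a surface protease of activated fibroblasts, measured 1.58, 1.86, 4.77 and 4.87 in G-Sham, 5.89, 5.61, 3.74 and 4.81 in FLT-Sham, 4.86, 5.43, 4.78 and 4.10 in G-Surgery, and 4.41, 1.50 and 1.45 in FLT-Surgery. Its interaction was -4.08 (standard error 1.26, limma adjusted p = 0.175), or -2.46 after loess. Fap passed the cut-off in 6 of the 15 fits that left out an array, and not after loess, median centring or normexp.

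Cartilage genes were lower in FLT-Surgery than in G-Surgery, where they were high. Their mean log2 ratio was 2.85 to 4.01 on the G-Surgery arrays, 0.48 to 1.40 in FLT-Surgery, -0.01 to 1.76 in G-Sham and 1.45 to 3.29 in FLT-Sham, so that FLT-Surgery overlapped with G-Sham. Col2a1, the main collagen of cartilage, measured -2.64, -1.40, -0.39 and 0.22 in G-Sham, 2.66, 0.64, 1.06 and -3.19 in FLT-Sham, 1.98, 4.65, 8.06 and 5.21 in G-Surgery, and 1.76, -2.14 and -2.46 in FLT-Surgery. The Surgery groups did not overlap. G-Sham arrays were all below background, and the interaction was -7.27 (standard error 2.06, limma adjusted p = 0.171). Prg4, the joint lubricant lubricin, was below background on all FLT-Surgery arrays and its level in G-Surgery was at least 5.64-fold higher. Chad, a cartilage matrix protein, had an interaction of -2.38 (standard error 0.70). These were 3 of 8 cartilage genes (1 after loess, and 1 without FLT-Surgery replicate 3), whose median was at -1.93 relative to all genes, or -2.61 after loess. Lum, a small proteoglycan of fibrous matrix, is on a separate list (-7.07, standard error 2.21). It was the only 1 of 14 genes of that list past the cut-off, against 6.6% of all genes. After loess 0 of the 14 passed.

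Endothelial genes stood higher in FLT-Sham apart from replicate 8. Their mean log2 ratio was 0.76, 1.68, 1.69 and 2.23 in G-Sham and 4.48, 4.85, 1.27 and 3.60 in FLT-Sham. In Surgery it was 2.32, 3.25, 2.67 and 1.57 on the ground and 2.51, 0.52 and 0.76 in flight. Of 14 genes 3 passed the cut-off below 0, and 9 without FLT-Sham replicate 8, where 18.2% of all measured genes passed. Without FLT-Sham replicate 4 or 6, G-Sham replicate 1, or FLT-Surgery replicate 3 or 5 none passed. Relative to all genes their median was -2.58, or -3.47 after loess. Ptprb, a phosphatase of the vessel wall, measured 2.97, 4.34, 5.04 and 6.30 in G-Sham, 7.74, 8.55, 4.63 and 6.82 in FLT-Sham, 6.08, 6.64, 6.13 and 5.12 in G-Surgery, and 6.23, 0.09 and 0.85 in FLT-Surgery. Tie1 and Sox18, the other endothelial genes past the cut-off, were listed at 0.00 on most arrays, where neither channel was informative. The brightest endothelial genes, Kdr, Egfl7 and Flt1, had interactions of 0.69, -2.75 and -2.32 by their brightest probes and did not pass. A dimmer probe of Kdr, a receptor of vascular endothelial growth factor, disagreed and passed, with an interaction of -4.95 (standard error 1.39), or -4.85 after loess. Klf2, a transcription factor that endothelial cells raise under flow, measured -2.41, -1.87, -0.70 and 1.0 in G-Sham, 1.97, 2.90, -0.17 and 2.40 in FLT-Sham, 2.37, 2.23, 1.93 and 0.31 in G-Surgery, and 2.48, -1.58 and -0.64 in FLT-Surgery. Its interaction was -4.39 (standard error 1.41) and passed the cut-off in 4 of the 15 fits that left out an array, and not after loess, median centring or normexp.

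Adipocyte genes differed mainly on the Sham side, where their median flight difference was 2.02, against -0.55 in Surgery. Plin1, which coats the lipid droplet, measured 0.98, 1.20, 2.31 and 1.72 in G-Sham and 5.28, 4.33, 2.85 and 3.75 in FLT-Sham, without overlap, and was below background on all 7 Surgery arrays. It was at least 2.23-fold higher in FLT-Sham than in G-Sham. Cidec, which enlarges lipid droplets, was above background on 1 G-Sham array and all 4 FLT-Sham arrays and listed at 0.00 on every Surgery array, so that its Surgery side was not measured. These were the 2 of 12 genes past the cut-off. Both entered the test through the Sham arrays where they were high, and their calls describe the Sham side only. Without FLT-Surgery replicate 1, 5 of the 12 genes passed below 0, where 2168 of 21777 probes did. The bright genes Car3, Plin4 and Fabp4 had interactions of -4.35, -2.15 and -6.63 and did not pass.

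The red cell genes Slc4a1 (anion exchanger of the red cell membrane) and Kel (a blood group antigen) were past the cut-off among 11 erythroid genes, and 5 were without FLT-Sham replicate 8. Kel was above background on 3 FLT-Sham arrays and on no array of the other groups, so that its Surgery side was not measured. Slc4a1 measured 2.13, 4.99, 2.75 and 3.67 in G-Sham, 6.86, 7.23, 3.87 and 6.59 in FLT-Sham, 1.48, 2.42, 3.35 and 4.30 in G-Surgery, and 1.47, 1.23 and 1.46 in FLT-Surgery. It was at least 2.42-fold higher in G-Surgery than in FLT-Surgery, whose arrays were all below background. Of the 11 erythroid genes 8 had an interaction below 0, and their median was at -1.50 relative to all genes, or -0.73 after loess. Hemgn and Ermap, the brightest of the list, went the other way, with interactions of 1.50 and 1.67, and did not pass.

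Genes of fatty acid oxidation followed the slow-fibre genes, and Fabp3 is on both lists. Of 23 measured, 5 passed below 0, against 6.6% of all measured genes. It was 12 without FLT-Sham replicate 8, against 18.2% of all genes, and 3 after loess. In 17 flight mice stood higher in Sham and lower in Surgery, against 52.6% of all genes. Cpt1b, the muscle form of the enzyme that admits fatty acids to mitochondria, measured 3.35, 3.79, 3.90 and 4.85 in G-Sham, 6.15, 6.27, 5.89 and 5.38 in FLT-Sham, 1.95, 4.61, 3.77 and 3.74 in G-Surgery, and 3.51, 0.61 and 1.39 in FLT-Surgery. The Sham groups did not overlap and FLT-Sham replicate 8 lay among its group. Its flight difference was 1.95 (standard error 0.63) in Sham and -1.68 (0.68) in Surgery, and its interaction -3.63 (0.93, limma adjusted p = 0.171). This probe of Cpt1b did not pass after loess. A brighter probe, whose Sham groups overlapped, gave -4.99 (standard error 1.46). Cpt2, which acts next in the same transport, and Decr1, a reductase for unsaturated fatty acids, had interactions of -2.97 (standard error 0.73) and -2.12 (0.52). Their Surgery groups did not overlap. The median of the list was at -1.14 relative to all genes, or -1.38 after loess.

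Receptors of growth factors formed a further group. Of 22 genes for FGF, insulin and IGF receptors and their adaptors, 6 passed below 0 and 1 above 0. After loess 2 passed below 0 and 2 above it. Below 0, 2 passed without FLT-Surgery replicate 3 or 5. Igf1r, the receptor of insulin-like growth factor 1, measured -5.20, -3.23, -3.21 and -3.16 in G-Sham, -1.85, -1.18, -2.23 and -1.96 in FLT-Sham, -2.41, -1.91, -1.46 and -3.07 in G-Surgery, and -2.83, -3.65 and -5.60 in FLT-Surgery. The G-Sham and FLT-Surgery arrays were below background. It was at least 2.36-fold higher in FLT-Sham than G-Sham and, in Surgery, at least 2.18-fold higher on the ground than in flight, and its interaction was 0.31 under normexp background correction. Fgfr1 measured 0.49, 0.54, 1.03 and 1.48 in G-Sham, 2.22, 2.07, 1.11 and 1.57 in FLT-Sham, 2.40, 2.43, 2.04 and 1.39 in G-Surgery, and 1.36, 0.54 and 0.39 in FLT-Surgery. It was above background on all 15 arrays, and its interaction was -2.16 (standard error 0.55, limma adjusted p = 0.171). These values are from its brightest probe. The study lists this gene as higher in flight in Surgery, on its array and by qPCR. The gene past the cut-off above 0 with the deposited log ratio was Gab3, an adaptor of macrophages. It measured 4.95, 4.58, 4.53 and 4.54 in G-Surgery and 7.39, 6.09 and 6.25 in FLT-Surgery. Its Sham difference was 0.07 (standard error 0.42), so that it did not turn round.

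The remaining genes named for higher values in flight in Sham and lower in Surgery were Glul (glutamine synthetase), Ushbp1, Pamr1, Gprc5c, Gmfg and Irf2bp2, with interactions of -4.27, -4.22, -4.67, -3.56, -4.28 and -4.02. A second probe of Gmfg went the other way. Of the 12 genes in this direction measured on at least 2 arrays of each group, 4 passed after loess and 9 after median centring. With Cy5 alone 10 passed, with normexp 8, and with the slide as a term in the fit 11. With any array left out 5 still passed, whereas Ushbp1 passed in 5 of the 15 fits. Among genes below background in a whole group, Trim63, the muscle atrophy ubiquitin ligase MuRF1, was at least 2.75-fold higher in G-Surgery than in FLT-Surgery. In Sham it measured -2.24, 1.85, 1.74 and 3.30 on the ground and 5.53, 6.31, 0.29 and 4.83 in flight. The interaction of Trim63 passed the cut-off in 9 of 27 other settings, and not after loess. Ints11, the nuclease of the Integrator complex, was at least 3.11-fold higher in FLT-Sham than G-Sham and, by at least 2.49-fold, higher in ground than in flight mice with Surgery. For 6330407A03Rik these bounds were 2.14-fold and 2.97-fold. Tmem52 was at least 2.75-fold higher in G-Surgery than in FLT-Surgery.

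Genes with the reverse pattern, lower in flight in Sham and higher in flight in Surgery, had smaller differences. Cabp5, a calcium-binding protein known from the retina, measured 5.97, 6.37 and 6.48 in G-Sham replicates 1, 3 and 5, 5.11, 4.88, 5.32 and 5.99 in FLT-Sham, 6.11, 5.51, 5.90 and 5.27 in G-Surgery, and 6.79, 7.09 and 6.58 in FLT-Surgery. Its Surgery groups did not overlap, and its interaction was 2.07 (standard error 0.48, limma adjusted p = 0.168). Shc4, an adaptor of receptor tyrosine kinases, measured 5.57, 6.21, 5.28 and 6.12 in G-Sham, 4.92, 4.78, 5.23 and 5.85 in FLT-Sham, 5.96, 5.36, 5.70 and 4.74 in G-Surgery, and 6.72, 7.20 and 6.13 in FLT-Surgery. H2-M11, a class I histocompatibility gene, measured 4.86, 5.70, 5.47 and 5.52 in G-Sham, 3.0, 3.46, 5.55 and 4.32 in FLT-Sham, 4.30, 1.47, -0.44 and 3.52 in G-Surgery, and 5.18, 3.95 and 5.24 in FLT-Surgery. In H2-M11 FLT-Sham replicate 8 lay among the G-Sham arrays.

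The other genes named in this direction had interactions of 3.62 (Oxct2b), 2.39 (Herc2, a ubiquitin ligase), 2.94 (Cpb2, a carboxypeptidase of fibrinolysis), 1.81 (Stk36), 3.32 (Cpped1), 1.43 (H2-T23), 1.95 (Smarcc1, a chromatin remodelling subunit), 1.48 (Grip1) and 1.80 (Lzts3). The other 2 probes of Cpped1 had interactions of the opposite sign. All 12 genes of this direction passed the cut-off after loess, the setting that moved all genes upward, and after median centring. With Cy5 alone Cabp5, H2-T23 and Smarcc1 did not pass, and with normexp 8 of the 12 did not. With the slide as a term in the fit 7 of the 12 did not pass. Cabp5 and Lzts3 passed with any array left out, whereas Smarcc1 passed in 3 of the 15 fits, H2-T23 in 4, and Cpb2, Stk36 and Grip1 in 5. Sox5, a transcription factor of cartilage formation, measured 5.32, 4.85, 4.99 and 5.14 in G-Surgery and 6.51, 6.40 and 6.68 in FLT-Surgery, with a Sham difference of -0.36 (standard error 0.30). Hap1 differed on the Sham side, with 4.31, 4.40, 4.46 and 3.96 in G-Sham and 2.62, 2.27, 3.52 and 3.52 in FLT-Sham. Cryga, a lens crystallin, was at least 2.90-fold lower in FLT-Sham than in G-Sham. The T and NK cell genes stood above all genes by 1.17 log2 units, or 1.09 after loess, and none of the 6 measured passed the cut-off. The interactions of their brightest genes were 0.74 (Cd4), 0.69 (Cd3e) and 0.20 (Lck).

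**Figure D5:**
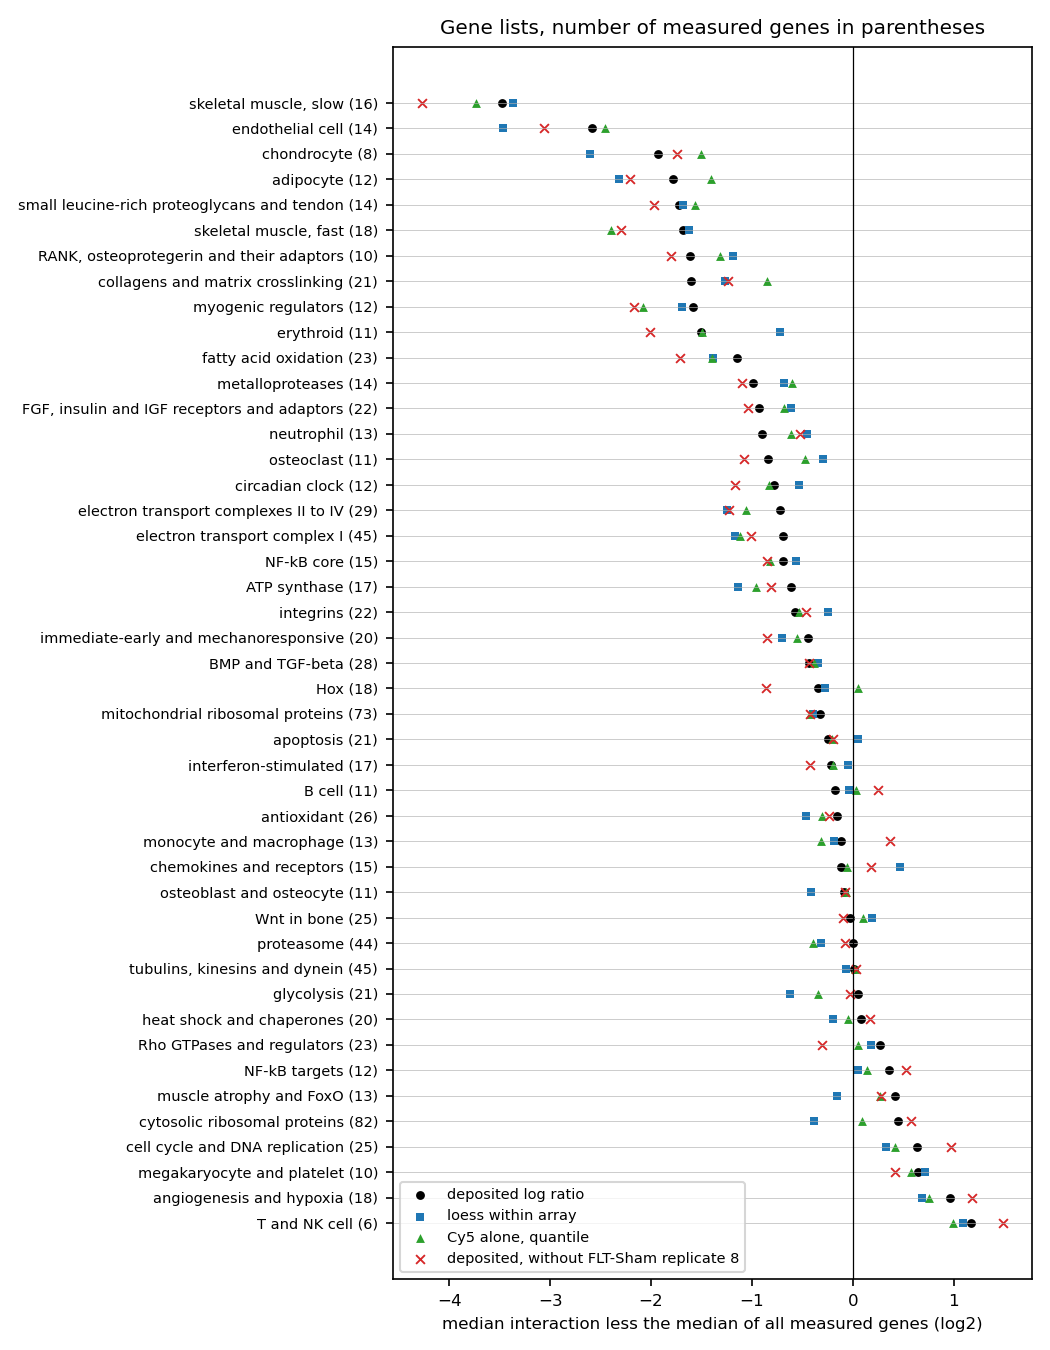
Median interaction of each gene list less the median of all measured genes, in log2 units, with the deposited log ratio, after loess, with Cy5 alone and without FLT-Sham replicate 8. Slow muscle lies between -4.27 and -3.37 under these settings, and T and NK cell genes lie above 0.

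In 103 probes (0.473% of those tested) the flight and ground arrays overlapped neither in Sham nor in Surgery, and 59 of the 1160 past the cut-off were among them. These had a symbol for 47 genes past the cut-off, all below 0, and 14 of them were above background on at least 3 arrays of each group. Some of these 14 were chosen for display after their values were seen. Ddx6, an RNA helicase of processing bodies, measured -0.93, -0.15, -0.50 and 0.03 in G-Sham, 0.85, 0.90, 0.16 and 0.56 in FLT-Sham, 0.90, 1.35, 0.73 and 0.37 in G-Surgery, and 0.17, -1.28 and -1.47 in FLT-Surgery. Its interaction was -2.70 (standard error 0.57, limma adjusted p = 0.159). Pdlim5, a protein of the muscle Z-disc, measured 2.66, 3.25, 2.49 and 3.32 in G-Sham, 4.07, 3.95, 3.40 and 3.56 in FLT-Sham, 2.84, 3.59, 3.13 and 3.01 in G-Surgery, and 1.82, 2.28 and 2.12 in FLT-Surgery. Gsk3b, the kinase that restrains Wnt signalling, had smaller differences, with an interaction of -1.41 (standard error 0.42), and so did Mrtfa, a co-activator of actin-responsive genes (-1.26, standard error 0.38). After loess the interaction was -1.46 for Ddx6, -0.30 for Pdlim5, -0.73 for Gsk3b and -0.70 for Mrtfa.

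The study's lists of genes assigned to a morbidity network, which it drew separately from the Sham and the Surgery comparison of these same mice, were set against the side that did not choose them. Of 75 measured genes of the Sham list, 54 (72.0%) were lower in flight in Surgery, against 69.8% of all measured genes. Of 129 measured genes of the Surgery list, 102 (79.1%) were higher in flight in Sham, against 66.9% of all measured genes. Relative to all genes, the median flight difference on the side not used was -0.36 in Surgery for the Sham list and 0.20 in Sham for the Surgery list, and after loess -0.09 and 0.20. No gene met the rule for a flight difference of the same sign on both sides with p of at most 0.01 for each.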

How the data were processed

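Femoral RNA of 15 mice was measured on 2-colour arrays, and groups were taken from the labels. The authors deposited Agilent Feature Extraction output (version 12.0 in the submitters' processing notes) holding each channel's intensity, background-subtracted and dye-normalized, and the log10 ratio made from it, which already carries an intensity-dependent normalization. The deposited log ratio was divided by log10 of 2 to give log2 ratios. Control spots and outlier spots were left out, spots of a probe were averaged (59305 spots, 55681 probes), and 28026 probes were matched to a RefSeq symbol by accession. Probes whose Cy5 signal was well above background on 3 or more arrays entered a fit of the 4 groups (limma 3.58.1, R 4.3.3). The 4 arrays per group, or 3, limit the precision. P-values measure the spread between these mice. The study assigned cages to the groups and housed the mice of a group together, so group and housing cannot be told apart.

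Named genes were the 12 per direction with the largest smaller-side difference among turned probes measured on at least 2 arrays of each group. To these came up to 5 per direction among those below background in a group, where the reverse direction held only 1. Also named were the 3 brightest and the past-cut-off genes of the 47 gene lists, from which a selection is printed. For a list, a gene is given by its brightest probe. Members and lists were chosen with earlier results of these data known. Normexp used median signals, since the files hold no mean signals. Beside 14 planned settings and 15 that leave out an array, 3 settings were chosen after seeing the data. Replicate numbers are shared between groups but do not pair the mice. Results for some genes chosen by these rules are not reported here.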

Additional observations from a re-analysis of the deposited data

Results flagged for a closer look

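The number of probes above background had an interaction of -6917.5 and the median log2 ratio per array one of -0.53, both by a test of the difference itself. Their part in the differences of single genes was not tested.

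Of 134 groups of 4 arrays examined, 13 held an array far from its group by Dixon's ratio, where chance gives about 1 in 20. In FLT-Sham the array was replicate 8 for Glul (ratio 0.832, log2 ratio 1.78 against 3.72 in the nearest array), Pamr1 (0.835, 1.19 against 3.58), Herc2 (0.837, 0.21 against 2.10), Ints11 (0.915, -1.67 against 1.19) and Prg4 (0.860, 0.58 against 5.72). It was also replicate 8 for the mean of the fast muscle genes (0.860, 6.30 against 8.40), of the adipocyte genes (0.957, 2.25 against 4.28) and of the erythroid genes (0.845, 3.67 against 5.16). In G-Sham it was replicate 1 for Ints11 (0.913, -3.54 against -1.68) and the mean of the fast muscle genes (0.831, 5.46 against 7.88), and replicate 3 for Oxct2b (0.899, 6.12 against 5.64). In G-Surgery it was replicate 3 for Ushbp1 (0.923, 4.48 against 3.49) and replicate 5 for H2-T23 (0.907, 0.13 against 0.69).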

How the results depend on the processing

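Probes past the cut-off for the interaction numbered 321 with normexp then loess, 568 where both channels of every array had to exceed background, 637 with probes above background on 2 arrays of each group, 2247 on the first slide, 103 on the second and 5709 with array weights. With 3 settings chosen after seeing the data they numbered 4679 (loess without FLT-Sham replicate 8), 3681 (median centring without it) and 551 (loess, both channels). In the same order, turned probes numbered 312, 532, 609, 2051, 82, 5563, 4612, 3501 and 514, probes past the cut-off in Sham 98, 73, 130, 1359, 128, 4203, 3524, 3141 and 91, and in Surgery 110, 256, 347, 1532, 136, 2170, 1133, 1060 and 240. In Sham there were 1069 with no filter and 424 with slide as a block. The share below 0 turned to 26.0% after loess, 46.1% with normexp, 12.4% and 39.7% with loess and median centring without FLT-Sham replicate 8, and 9.98% with loess and both channels. It was 61.0% with median centring, 76.9% with Cy5 alone, 78.3% with no filter, 77.8% with both channels, 82.3% with 2 arrays of each group, 74.2% and 62.1% on the slides and 79.6% with array weights. The share of tested probes with opposite signs was 66.4%, 64.3%, 56.0%, 65.7%, 51.7%, 68.8%, 64.0%, 66.5%, 54.9% and 68.1% with loess, median centring, normexp, Cy5 alone, no filter, both channels, 2 arrays of each group, each slide and array weights, and 68.6%, 66.0% and 78.1% with the added settings. The cause was not tested, except that the slides and stricter filters hold fewer arrays or probes. Leaving out each array in turn gave 541 to 3770 for the interaction, 524 to 3632 turned, 257 to 2756 in Sham, 303 to 1394 in Surgery, 78.4% to 96.8% below 0 and 57.5% to 68.9% of opposite sign. It gave -8360 to -5633.25 for the interaction of the number above background and -0.64 to -0.40 for that of the median log2 ratio. The replicate block gave 399 past the cut-off, 373 turned, 364 in Sham, 287 in Surgery, 79.2% below 0 and 65.7% of opposite sign. Arrays with the same number correlated at -0.43 to 0.28 in their deviations from group means (12 pairs, 4 over 0.1), so the numbers were not taken as pairs. Of the values of 73 named genes, 1373 kept their direction and side of the threshold, 652 kept only their direction and 3 reversed, all with normexp then loess: Cdon (0.11), Foxo1 (0.10) and Igf1r (0.31). Of the list medians, 996 kept within their spread and 85 moved. At most 38.5% of probes exceeded background on an array, and dimmer genes are known only as bounds.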

Other observations

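Genes of oxidative phosphorylation lay below all genes by less than the slow-fibre genes did. Complex I, which feeds electrons from NADH, had 38 of 45 measured genes higher in flight in Sham and lower in Surgery, and 2 past the cut-off, Ndufa3 (-1.36) and Ndufa4l2 (-3.41). Without FLT-Sham replicate 8, 24 of the 45 passed, where 18.2% of all measured genes did, and none did without any 1 of FLT-Sham replicates 4, 6 and 9, FLT-Surgery replicates 3 and 5, and G-Surgery replicates 3, 4 and 5. Among the other electron transport complexes 25 of 29 had these signs and 1 passed, Uqcr11 (-1.93), and for the ATP synthase 13 of 17 and 1, Atp5g3 (-1.74). Over all measured genes 5844 of 11104 had these signs. The median of complex I was at -0.69 relative to all genes, or -1.17 after loess. The proteasome list lay at 0.00 relative to all genes with 0 of 44 past the cut-off.

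Of 15 core genes of NF-kB signalling 4 passed below 0, 1 after loess, and 2 without any 1 of FLT-Sham replicates 4, 6 and 9 and FLT-Surgery replicates 3 and 5. Chuk, which encodes the kinase IKK-alpha, measured -2.73, -1.83, -2.19 and -1.13 in G-Sham, -0.53, -0.49, -1.94 and -0.85 in FLT-Sham, -1.47, -1.31, -1.42 and -1.45 in G-Surgery, and -2.48, -4.06 and -3.01 in FLT-Surgery. Its interaction was -2.79 (standard error 0.64, limma adjusted p = 0.167). The others were Tab1 (-1.61), Tab2 (-5.15) and Traf2 (-1.40), which carry signals from cytokine receptors to the IKK kinases. Of 12 measured targets of NF-kB 1 passed, and their median was at 0.36 relative to all genes.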
